A study of Arabidopsis thaliana with 4 samples.

Results

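Plants of the gpa1 line not given abscisic acid (ABA) were compared with plants of the wild type WS not given it, which uses 2 of the 4 arrays of a study on that hormone. Both lines of Arabidopsis thaliana carry the ecotype label ws-2, and they came from different seed stocks. The gpa1 line is labelled as a T-DNA insertion into At3g26300, and the WS plants carry no label of a genetic change. All plants were 10 days old, grew on Murashige and Skoog agar at 21 °C under 16 h light and 8 h dark, and were harvested whole, with 10 plants pooled. The other 2 arrays hold the same lines after 100 µM ABA for 3 h. The labels of the 2 arrays without ABA name no treatment, so a mock treatment is not stated. Each group is 1 array of 1 pool, so no difference below has a replicate or a p-value, and genotype, seed stock, pool and array cannot be told apart.

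In Arabidopsis, GPA1 is the alpha subunit of the trimeric G protein, a membrane switch that passes signals from receptors to channels and enzymes when it binds GTP. Plants without it are known for altered stomatal responses to ABA and for altered seed germination, cell division and sugar responses. ABA itself rises in drought and keeps seeds dormant. The comparison asks how the 2 lines differ at rest, before the hormone is added.

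The array holds 22810 probe sets, of which 64 are controls and 22746 were analysed as deposited intensities on a linear scale. Intensities below 19.2, the 30th percentile over the 4 arrays, were raised to that value, called the floor here. The difference of a probe set is the log2 of gpa1 minus the log2 of WS, so a positive value is higher in gpa1. A probe set was counted if it lay above the floor on at least 1 of the 2 arrays. That held for 16874 probe sets, with 15326 above the floor on both arrays and 5872 left out because both arrays were at the floor. Where 1 array was at the floor, the fold is a lower bound and is written as "at least". The annotation named 1 gene for 9372 of the counted probe sets.

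The 2 lines were close across the transcriptome. The Pearson correlation of log2 intensity over the counted probe sets was 0.973, as a description across probe sets. The median difference was -0.01 and the robust SD 0.29 on the log2 scale, and 87.3% of the probe sets lay within 0.5 of zero. With that median, about as many probe sets lay above zero as below it. In gpa1, 115 probe sets were at least 2-fold higher, 0.682% of those counted, and 111 were at least 2-fold lower, 0.658%. In either direction the share was 1.34%, so the gene lists below with none past 2-fold lie near it. Among probe sets with 1 gene, 63 were higher, 0.672%, and 61 were lower, 0.651%. The tail was longer on the lower side, with 13 probe sets at least 4-fold lower against 3 at least 4-fold higher. Of the 2-fold differences, 36 higher ones rest on a WS value at the floor and 43 lower ones on a gpa1 value at the floor. Of the genes described below, PDF1.2, PDF2.1, CXE20 and ndhF with a floor at the 45th percentile, ATPMEPCRD, psbN, ndhF and AT5G37980 with a pseudocount, and PDF2.1 after quantile normalization were not 2-fold apart. By the reading of the brighter array, the share past 2-fold was 1.32% up to 50, 1.99% from 50 to 100, 0.798% from 100 to 200, 1.2% from 200 to 500 and 0.872% above 500, with no steady order.

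**Figure D1:**
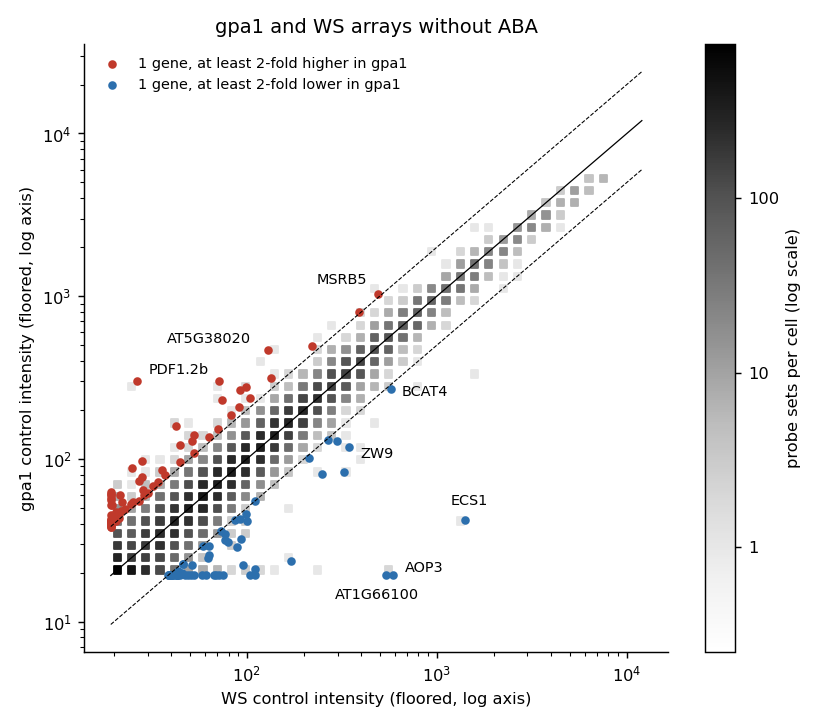
Intensity of each counted probe set on the gpa1 control array against the WS control array, both floored at 19.2 and on log axes. Grey squares give the number of probe sets per cell, coloured points are the 63 higher and 61 lower probe sets with 1 gene, the solid line marks equality and the dashed lines a 2-fold difference. ECS1, AOP3 and AT1G66100 lie far below the cloud and PDF1.2b lies far above it.

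The array readings differed between the 2 control arrays. Scanner background was 67.7 in gpa1 and 56.3 in WS. The geometric mean of 18 spike-in probe sets was 339 in gpa1 and 513 in WS, and all 18 were lower in gpa1, by log2 differences from -1.0 to -0.22. The probe set of 25S rRNA read 1550 in gpa1 and 2236 in WS. For actin, the 3-prime probe set read 8.71 times the 5-prime one in gpa1 and 6.09 times in WS. The same ratio was 2.91 in gpa1 and 2.52 in WS for ubiquitin, and 1.89 and 1.93 for GAPDH. The median intensity was 47.6 in gpa1 and 48.0 in WS, and each array had been scaled to a common trimmed mean. The part of these readings in the gene differences was not tested.

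The locus on the label was read first. CYP71B34, a cytochrome P450 gene, is the gene at AT3G26300, and it had an intensity of 117 in gpa1 and 105 in WS, a difference of 0.15. A transcript at that locus was thus at nearly the same level on both control arrays. On the ABA arrays it read 105 in gpa1 and 122 in WS, a difference of -0.21. GPA1 itself is known at AT2G26300, a locus name that differs from the labelled one in the chromosome digit. The GPA1 probe set is not among those named here and was not analysed here, so the label of the line was not checked through its target gene.

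The neighbours of both loci were set beside these values. Of the 20 counted genes nearest to AT3G26300, none was 2-fold apart in either direction, and their median was -0.09, with a range from -0.70 for AT3G26440 to 0.65 for AT3G26460. These neighbours include other members of the CYP71B tandem cluster. CYP71B22 differed by 0.01, CYP71B23 by -0.43, CYP71B26 by -0.43, CYP71B35 by 0.62 and CYP71B37 by 0.01. Of the 20 counted genes nearest to AT2G26300, 1 was 2-fold higher and none was 2-fold lower, with a median of 0.02. The higher one was PDF1.2b. RTE1, a membrane protein that acts with the ethylene receptor ETR1, was also in that window, with 89.4 in gpa1 and 55.5 in WS, a difference of 0.69.

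Secreted defence proteins held differences at both ends of the range. Plant defensins are small cysteine-rich antimicrobial peptides, and PDF1.2 is the usual marker of the jasmonate and ethylene branch of defence. PDF1.2b had an intensity of 300.0 in gpa1 and 26.5 in WS, which is 11.3-fold higher in gpa1. Its close relative PDF1.2 read 62.8 in gpa1 and 14.4 in WS, at least 3.27-fold higher. PDF2.1, a defensin of another subgroup, read 39.1 in gpa1 and 4.2 in WS, at least 2.04-fold higher. All 3 defensins were therefore above the floor in gpa1, and PDF1.2 and PDF2.1 were below it in WS. PDF1.2 and PDF1.2b have near-identical coding sequences, and the PDF1.2b probe set is of the type whose probes can match several transcripts, so the 2 readings may share RNA.

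On the ABA arrays the defensins went different ways. PDF1.2b read 40.3 in gpa1 and 30.1 in WS, a difference of 0.42, and PDF1.2 was below the floor in both lines, at 9.0 and 10.0. PDF2.1 read 162 in gpa1 and 77.1 in WS, a difference of 1.07. The PDF1.2b and PDF1.2 differences were thus 2-fold on the control pair and not on the ABA pair, and that of PDF2.1 was 2-fold on both.

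ECS1, which codes for a protein associated with the cell wall and is listed here with the defence proteins, had the lowest difference among genes above the floor on both arrays. It read 42.3 in gpa1 and 1402 in WS, 33.2-fold lower in gpa1. With ABA it read 35.7 in gpa1 and 1382 in WS, 38.7-fold lower. It was thus dim on both gpa1 arrays and bright on both WS arrays, where the 2 arrays of a line are single arrays of different conditions. Of the 12 counted defensin and pathogenesis-related members, 3 were 2-fold higher and 1 was 2-fold lower, and the other 8 were not 2-fold apart, beside 0.682% higher and 0.658% lower over all counted probe sets. Their median was 0.17, beside -0.01 over all counted probe sets. The list rests on names in the annotation and may miss defence genes given by locus alone. AT1G66100 and AT4G33720, both lower in gpa1 and described below, are outside it. The chitinase CHI, a cell wall hydrolase that acts on fungi, read 41.8 and 66.2, a difference of -0.66, and PDF1.4, another defensin, read 43.5 and 25.5, a difference of 0.77. The thionin THI2.2 differed by 0.04 and the osmotin OSM34 by 0.05.

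No counted regulator on the defence lists was 2-fold apart, where 1.34% of all counted probe sets were. WRKY53, a transcription factor of senescence and defence, read 21.6 in gpa1 and 24.5 in WS, and SAG101, a partner of the immune regulator EDS1, read 33.9 and 31.2. None of the 6 counted WRKY factors was 2-fold apart, and WRKY22 had the widest difference, -0.40. EIN3, the transcription factor that carries the ethylene signal, read 366 in gpa1 and 412 in WS, a difference of -0.17. MYC4, a jasmonate transcription factor, read 73.8 and 49.2, a difference of 0.58. Of the 5 counted genes on the list of jasmonate and wounding, which MYC4 is outside of, none was 2-fold apart. Its highest and lowest members were the jacalin-related lectins JAL33 and JAL34, at 0.27 and -0.26, so the list does not hold jasmonate genes alone.

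**Figure D2:**
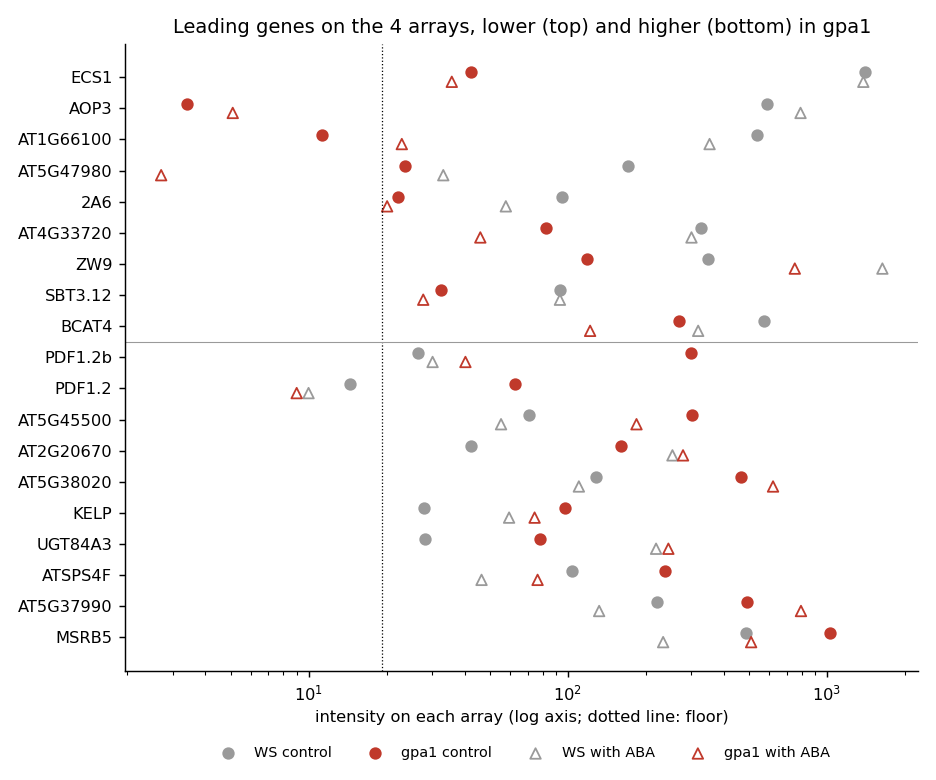
Intensity of 19 genes on each of the 4 arrays on a log axis, with filled circles for arrays without ABA, open triangles for arrays with ABA, red for gpa1 and grey for WS. The dotted line is the floor of 19.2, below which values are plotted as deposited. ECS1, AOP3 and BCAT4 are lower in gpa1 in both pairs, and PDF1.2b and AT2G20670 are apart in the pair without ABA alone.

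AOP3 and BCAT4, which act in the glucosinolate pathway, were at least 2-fold lower in gpa1. Glucosinolates are the sulfur-rich defence compounds of the mustard family, built from amino acids such as methionine, modified in their side chains and moved between tissues by dedicated carriers. AOP3 is a dioxygenase that turns methylsulfinyl side chains into hydroxyalkyl ones. It read 3.4 in gpa1 and 585 in WS, at least 30.5-fold lower in gpa1. With ABA it read 5.1 in gpa1 and 791 in WS, at least 41.2-fold lower. AOP3 was therefore below the floor in gpa1 and bright in WS, with and without ABA.

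BCAT4, the aminotransferase that starts the chain elongation of methionine, read 270 in gpa1 and 573 in WS, 2.13-fold lower. With ABA it read 122 in gpa1 and 319 in WS, 2.61-fold lower. It was lower in gpa1 in both pairs, although its level was lower with ABA in each line. UGT74B1, which adds the sugar to the glucosinolate core, read 203 in gpa1 and 295 in WS, a difference of -0.54. AOP1, a relative of AOP3, read 91.8 and 114, a difference of -0.31. The carriers GTR2 and GTR1 differed by -0.18 and -0.04.

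All 6 counted members of the pathway thus read lower in gpa1 than in WS, 2 of them by at least 2-fold beside 0.658% of all counted probe sets, and their median was -0.42 beside -0.01 over all counted probe sets. With ABA the median of the same members was -0.45. CYP79A2, which feeds phenylalanine into the pathway, was below the floor in both lines. The list is short because the annotation used here names few of the genes of the pathway. In sulfate use, which supplies the pathway, the ATP sulfurylase APS4 read 175 in gpa1 and 292 in WS, a difference of -0.74. APS3, of the same enzyme family, differed by -0.38, while OASA2, an enzyme of cysteine synthesis, differed by 0.41. None of the 5 counted nitrogen and sulfur genes was 2-fold apart.

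**Figure D3:**
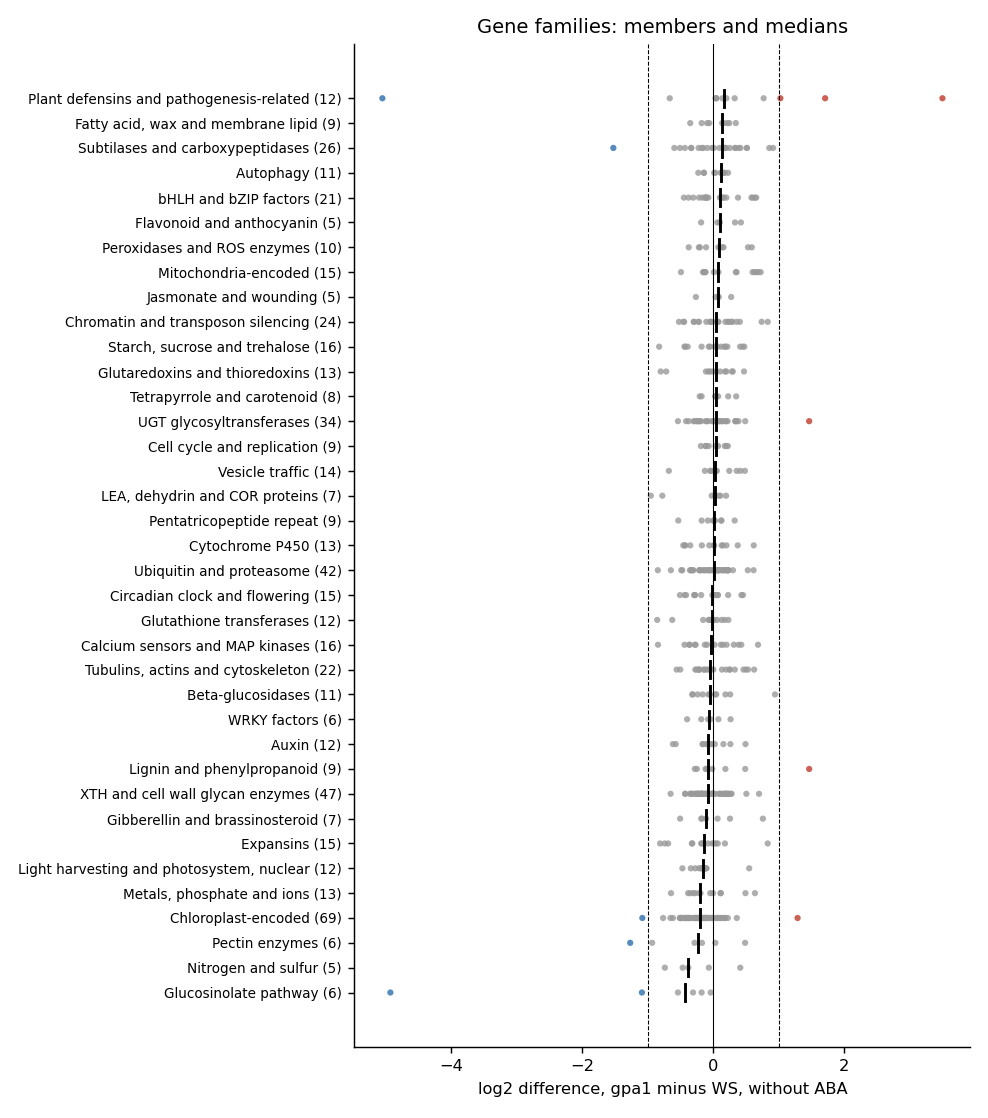
log2 difference of gpa1 minus WS without ABA for every counted member of the families with at least 5 counted members, with the number counted in parentheses. Each point is a probe set, red or blue where it is at least 2-fold apart, and the black bar is the family median. The glucosinolate pathway has the lowest median, -0.42, and the defensin list holds points at both ends.

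Other metabolic genes stood out singly rather than as families. UGT84A3, a glucosyltransferase of hydroxycinnamic acids such as sinapate, read 77.9 in gpa1 and 28.2 in WS, 2.76-fold higher. With ABA it was higher in both lines, at 245 and 219, and the lines were 0.16 apart. It was the only one of the 34 counted UGT genes past 2-fold, and the family median was 0.04. Its relative UGT84A4 differed by -0.12, UGT72E2, which glucosylates lignin precursors, by -0.28, and UGT72E3 by 0.49. Among 9 counted phenylpropanoid genes, UGT84A3 was likewise the only one past 2-fold, and HCT, an acyltransferase of lignin synthesis, differed by 0.19.

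ATSPS4F, a sucrose phosphate synthase, which works in the synthesis of sucrose, read 236 in gpa1 and 104 in WS, 2.28-fold higher. With ABA it read 76.5 in gpa1 and 46.5 in WS, a difference of 0.72. The sugar carrier SWEET17 went the other way, with 75.7 in gpa1 and 134 in WS, a difference of -0.82. No gene on the list of starch, sucrose and trehalose, which ATSPS4F is outside of, was 2-fold apart among the 16 counted, and its median was 0.04. MSRB5, a methionine sulfoxide reductase that repairs oxidised proteins, was the brightest of the named higher genes, with 1026 in gpa1 and 488 in WS, 2.1-fold higher. It was 2.19-fold higher with ABA, at 510 and 233.

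Detoxifying enzymes were mostly close. GSTU20, a glutathione transferase, read 418 in gpa1 and 757 in WS, a difference of -0.85, and -0.61 with ABA. None of the 12 counted glutathione transferases was 2-fold apart, and their median was -0.02. BGLU28, a beta-glucosidase, read 103 in gpa1 and 53.6 in WS, a difference of 0.94, and 1.22 with ABA. PYK10, the abundant beta-glucosidase of root endoplasmic reticulum bodies, read 2484 and 3088, a difference of -0.31. None of 13 counted P450 genes was 2-fold apart, with a median of 0.01. CXE20, of the carboxylesterase family, read 5.9 in gpa1 and 51 in WS, at least 2.66-fold lower, and at least 2.88-fold lower with ABA. A probe set of the dioxygenase family member 2A6 read 22.2 in gpa1 and 94.9 in WS, 4.28-fold lower, and 2.87-fold lower with ABA. Another counted 2A6 probe set differed by -0.36 without ABA and -0.58 with ABA, so it was not 2-fold apart on either pair.

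Cell wall and secreted protease genes gave single low readings in gpa1. ATPMEPCRD, a pectin methylesterase, which strips methyl groups from wall pectin, read 41.6 in gpa1 and 100.1 in WS, 2.41-fold lower. Both lines were below the floor with ABA, at 3.1 and 16.4. Another pectin methylesterase, ATPMEPCRB, read 25.9 and 49.4 without ABA, a difference of -0.93, and 64.4 and 211 with ABA, a difference of -1.71. SBT3.12, a subtilase, which is a secreted serine protease, read 32.4 in gpa1 and 93.2 in WS, 2.88-fold lower, and 3.37-fold lower with ABA. It was the only one of 26 counted subtilase and carboxypeptidase genes past 2-fold, and their median was 0.13. SBT4.12 read 139 and 73.9, a difference of 0.91.

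Expansins, which loosen the wall during growth, held no gene past 2-fold among 15 counted. Their median was -0.15, beside -0.01 over all counted probe sets, and 10 of the 15 read lower in gpa1. The root hair expansins EXPA18 and EXPA7 read 81.5 and 48.1 in gpa1 against 143 and 80.3 in WS, differences of -0.81 and -0.74. EXPA9 differed by -0.69, and EXPA20 read 34.2 in gpa1 and 15.2 in WS, a difference of 0.83 with WS at the floor. With ABA the expansin median was 0.27, and EXPA18 and EXPA7 were higher in gpa1 by 0.43 and 0.73. Among 47 counted genes of xyloglucan, cellulose and other wall glycans, none was 2-fold apart, and the median was -0.09.

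The annotation named few genes of ABA signalling and metabolism, with 2 probe sets on that list and 1 of them counted. Of the list of LEA, dehydrin and COR proteins, which protect cells in drought and cold, 7 of 13 were counted and none was 2-fold apart, with a median of 0.03. The dehydrin LTI30 read 92.7 in gpa1 and 80.9 in WS, and COR47 differed by -0.02. DI21 had the lowest value, with 72.4 in gpa1 and 140 in WS, a difference of -0.95, and COR15B read 20.5 and 35.1, a difference of -0.78. COR15A and LEA4-5 were at or below the floor in both lines. In ABA signalling the annotation gave EEL alone above the floor, a bZIP factor of seed maturation, with 20.4 and 23.2. PRN, the pirin that binds GPA1, read 105 in gpa1 and 103 in WS, a difference of 0.03.

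Growth hormone genes held none past 2-fold either, beside 1.34% of all counted probe sets. Among 12 counted auxin genes the median was -0.07, and GH3.17 and GH3.3, which join auxin to amino acids, differed by -0.62 and -0.57. LBD16, a factor of lateral root formation, differed by 0.49. The 3 gibberellin receptors were spread, with GID1C at 36.9 in gpa1 and 21.8 in WS, a difference of 0.76, GID1A at 0.26 and GID1B at -0.50. None of the 15 counted clock and flowering genes, the 16 calcium sensor and MAP kinase genes or the 42 ubiquitin genes was 2-fold apart. The widest among these were the calmodulin-like CML43, with 30.0 and 53.8, and the ubiquitin ligase PUB22, with 36.8 and 66.1, each -0.84. Both were also lower in gpa1 with ABA, by -1.04 and -0.72.

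In all, 60 families were defined, and 51 had a counted member. A 2-fold member was found in 7 of these and in none of the other 44. The families hold 596 counted probe sets, and 11 of them were past 2-fold, while 1.34% of all counted probe sets were past 2-fold in either direction. In the 24 families with at least 10 counted members, medians ran from -0.20 to 0.17.

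Genes of photosynthesis read slightly lower in gpa1 as groups. The nuclear genes hold 12 counted members, of which 11 read lower in gpa1. Their median was -0.16, beside -0.01 over all counted probe sets. RCA, the activase of Rubisco, read 4330 in gpa1 and 5487 in WS, a difference of -0.34. LHCB4.1, an antenna protein of photosystem II, read 4567 and 5525, a difference of -0.27, and PSBW, a small subunit of that photosystem, read 3112 and 4310, a difference of -0.47. After quantile normalization the median of these 12 genes was 0.06, so its sign depends on the scaling. With ABA it was 0.34.

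Of the 69 counted genes of the chloroplast genome, 57 read lower in gpa1, 1 of them by at least 2-fold, and 1 was at least 2-fold higher. Their median was -0.20, beside -0.01 over all counted probe sets, and -0.08 after quantile normalization. The cRNA was primed with oligo(dT), and how well that reads chloroplast and mitochondrial transcripts was not tested. By complex, the median was -0.27 for 15 photosystem II genes, -0.37 for 5 photosystem I genes, -0.28 for 6 ATP synthase genes and -0.25 for 10 genes of the NDH complex. It was -0.01 for 15 ribosomal protein genes and -0.04 for 4 RNA polymerase genes. psbB, a core antenna protein of photosystem II, read 670 in gpa1 and 1138 in WS, a difference of -0.76. psbN, an assembly factor of the same photosystem, read 101 in gpa1 and 213 in WS, 2.12-fold lower, and was the only chloroplast gene at least 2-fold lower.

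The chloroplast differences did not hold on the ABA pair. The median of the 69 genes was 0.08 with ABA, and psbN read 180.0 in gpa1 and 99.7 in WS, a difference of 0.85. ndhF, a subunit of the NDH complex, read 54.0 in gpa1 and 22.1 in WS without ABA, 2.44-fold higher. With ABA it read 24.9 and 81.4, a difference of -1.71. The array readings moved with the chloroplast median: the 25S rRNA difference was -0.53 on the control pair and 0.91 on the ABA pair, and the spike-in difference was -0.60 and 0.73. The part of these readings in the chloroplast differences was not tested.

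Mitochondrial genes had a median of 0.08 over 15 counted probe sets, which became -0.04 under a floor at the 45th percentile. nad4, a subunit of respiratory complex I, read 448 in gpa1 and 278 in WS, a difference of 0.69, and -0.71 with ABA. None was 2-fold apart.

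The labelled tissue, whole plant, was read against marker genes. The shoot markers RCA, LHCB4.1 and LHCB4.2 were bright on both control arrays, and all 3 read lower in gpa1, by -0.34, -0.27 and -0.12. Their summed intensity was 11797 in gpa1 and 14175 in WS. After quantile normalization the median of the 3 was 0.10, against -0.27 as deposited. The root markers EXPA18, EXPA7 and PYK10 were all above the floor and all lower in gpa1, with a median of -0.74 and summed intensities of 2613 and 3311. With ABA the root median was 0.43. The guard cell markers SPCH and MUTE, the trichome marker TRY and the meristem marker CLV3 lay at or below the floor in both lines, and the other listed markers of these cells, of seeds and of flowers are not named by the annotation. Fewer root cells and less RNA per root cell cannot be told apart in whole plants, and the part of organ proportions in the gene differences was not tested.

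Many of the genes past 2-fold are loci for which the annotation gives no gene name. Whether such loci are more common among the differing genes than among all counted genes was not tested. AT1G66100 read 11.3 in gpa1 and 539 in WS, at least 28.1-fold lower, and with ABA 22.9 and 353, 15.4-fold lower. AT4G33720 read 82.7 and 326, 3.94-fold lower, and 6.53-fold lower with ABA. AT5G47980 read 23.6 and 170.2, 7.21-fold lower. With ABA its gpa1 value was below the floor and its WS value was 33.1, so the bound there was at least 1.72-fold. These 3 loci were lower in gpa1 on both pairs of arrays.

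AT5G26260 read 17.6 in gpa1 and 110.3 in WS, at least 5.74-fold lower, and AT1G73490 read 21.0 and 110.2, 5.25-fold lower. AT5G55450 read 19.4 and 104 without ABA and was below the floor in both lines with ABA, at 2.4 and 18.5. ZW9, which codes for a protein of the TRAF-like family, read 119 in gpa1 and 347 in WS, 2.93-fold lower. With ABA both lines were brighter, at 752 in gpa1 and 1637 in WS, 2.18-fold lower in gpa1. AT5G22580 read 81.2 and 249 without ABA but 65.8 and 66.6 with ABA, so the 2 lines were 3.07-fold apart in the first pair and 1.01-fold in the second.

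Among the higher loci, AT5G45500 read 302 in gpa1 and 71.0 in WS, 4.25-fold higher, and 3.33-fold higher with ABA. AT5G45510, the next locus on chromosome 5, read 313 and 134, 2.33-fold higher, and 1.51-fold higher with ABA. AT5G23830 read 231 and 73.7, 3.13-fold higher, and 2.47-fold higher with ABA. These 3 were higher in gpa1 on both pairs. KELP, a transcriptional coactivator, read 97.4 in gpa1 and 28 in WS, 3.48-fold higher, and 1.25-fold higher with ABA. AT4G13050 read 88.4 and 24.8, 3.57-fold higher, and at least 1.44-fold higher with ABA.

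Several higher loci were apart in the pair without ABA alone. AT2G20670 read 160.0 in gpa1 and 42.5 in WS, 3.76-fold higher. With ABA it was brighter in both lines, at 279 and 254, a difference of 0.14. AT1G49500 read 264 and 92.0, 2.87-fold higher, and 551 and 642 with ABA, a difference of -0.22. AT5G19120 read 275 and 98.4, 2.79-fold higher, and 159 and 147 with ABA, a difference of 0.11. AT2G20670, AT1G49500 and UGT84A3 share a pattern: both ABA arrays were brighter than the gpa1 control array, and the WS control array was the lowest of the 4.

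The control pair and the ABA pair share no array, so the ABA pair gives another reading of the same 2 lines in another condition, which is not a replicate. Of the 115 higher probe sets, 104 were above the floor on at least 1 ABA array. Of these, 78 were also higher in gpa1 with ABA, 75%, while 49.6% of all readable probe sets were positive there, and 23 were at least 2-fold higher, 22.1% against 0.659% of all. Of the 97 readable lower probe sets, 80 were also lower, 82.5% against 50.1% of all, and 39 were at least 2-fold lower, 40.2% against 1.03%. Over the whole ABA pair, 0.671% of the probe sets above its floor were at least 2-fold higher and 1.07% at least 2-fold lower, 1.74% in all. The median of the higher set went from 1.17 to 0.36 and that of the lower set from -1.21 to -0.78. The sets were chosen for large differences on the control pair, so smaller ones are to be met on any other pair. The part of ABA in the fall was not tested.

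The brighter probe sets were also read apart. Where the brighter control array read at least 100, 31 of 34 readable higher probe sets and 29 of 30 lower ones kept their sign with ABA, and 11 and 21 of them were again at least 2-fold apart. Over the 201 readable probe sets of both directions, 158 kept their sign, 78.6%. The correlation of the 2 differences across 15793 readable probe sets was 0.235, given as a description, since genes are not independent and each difference carries the error of 2 single arrays. ndhF was the only counted probe set at least 2-fold apart in opposite directions in the 2 pairs.

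**Figure D4:**
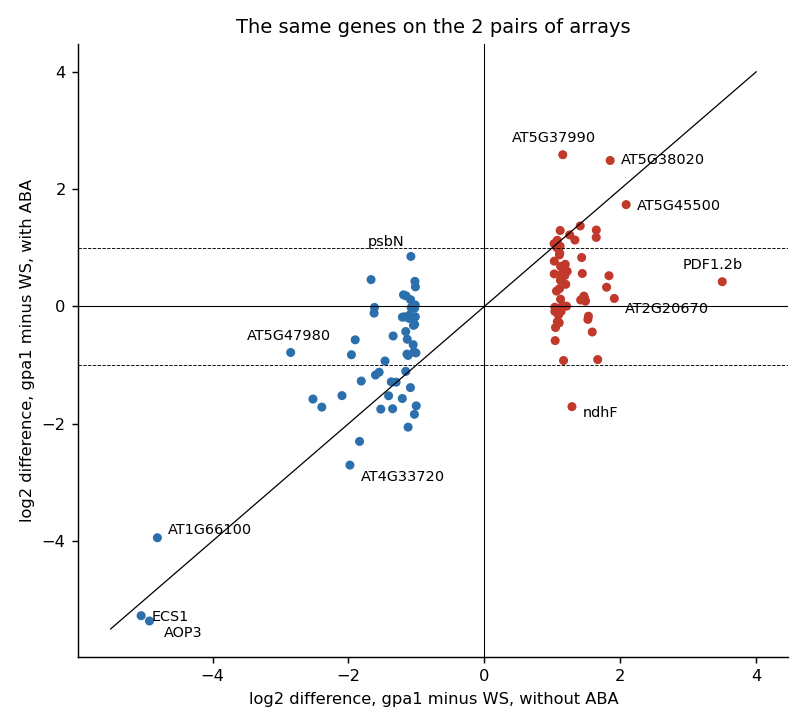
log2 difference of gpa1 minus WS with ABA against the same difference without ABA, for the 58 higher (red) and 53 lower (blue) genes that were above the floor on at least 1 ABA array. The solid diagonal marks equal differences and the dashed lines a 2-fold difference with ABA. ECS1, AOP3 and AT1G66100 lie near the diagonal, PDF1.2b and AT2G20670 lie near zero on the vertical axis, and ndhF lies alone at the lower right.

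The differences were spread over all 5 chromosomes. Of 9265 counted probe sets with 1 gene and a place in the gene order, 61 were higher and 59 were lower. Chromosome 4 held 14.8% of the placed probe sets, 26.2% of the higher ones, 16 in number, and 11.9% of the lower ones, 7 in number. Chromosome 1 held 26% of the placed probe sets, 14.8% of the higher ones and 23.7% of the lower ones. Chromosome 5 held 23.8% of the placed probe sets, 29.5% of the higher ones and 32.2% of the lower ones. These shares depend on the setting: over the alternatives tried, the higher share ran from 3.85% to 21.1% on chromosome 1, from 18.8% to 38.5% on chromosome 4 and from 27.1% to 41.7% on chromosome 5. The share of the lower ones ran from 23.7% to 31%, from 6.25% to 21.4% and from 23.5% to 36% on the same chromosomes. The median difference of each chromosome lay between -0.01 and 0.01.

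A single run of neighbouring genes met the rule of at least 3 genes past 2-fold in the same direction within 10 placed probe sets. It lies on chromosome 5 and consists of AT5G37980, AT5G37990, AT5G38020 and AT5G38030, all higher in gpa1. They are consecutive among the placed probe sets, and counted probe sets without a single gene name have no place in that order. AT5G37980 read 85.0 in gpa1 and 35.6 in WS, 2.39-fold higher. AT5G37990 read 492 and 221, 2.22-fold higher, and AT5G38020 read 464 and 129, 3.61-fold higher. AT5G38030 read 140 and 52.5, 2.66-fold higher.

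All 4 genes of the run were at least 2-fold higher in gpa1 with ABA as well. AT5G37990 was 6.01-fold higher there, at 794 and 132, and AT5G38020 was 5.61-fold higher, at 620 and 110.4. AT5G38030 was 2.59-fold higher and AT5G37980 at least 2.33-fold, since its WS value was 3.0. The gap between the lines was wider with ABA for the 2 brighter genes and close to the control gap for the other 2. Genotype and seed stock cannot be told apart for the run.

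**Figure D5:**
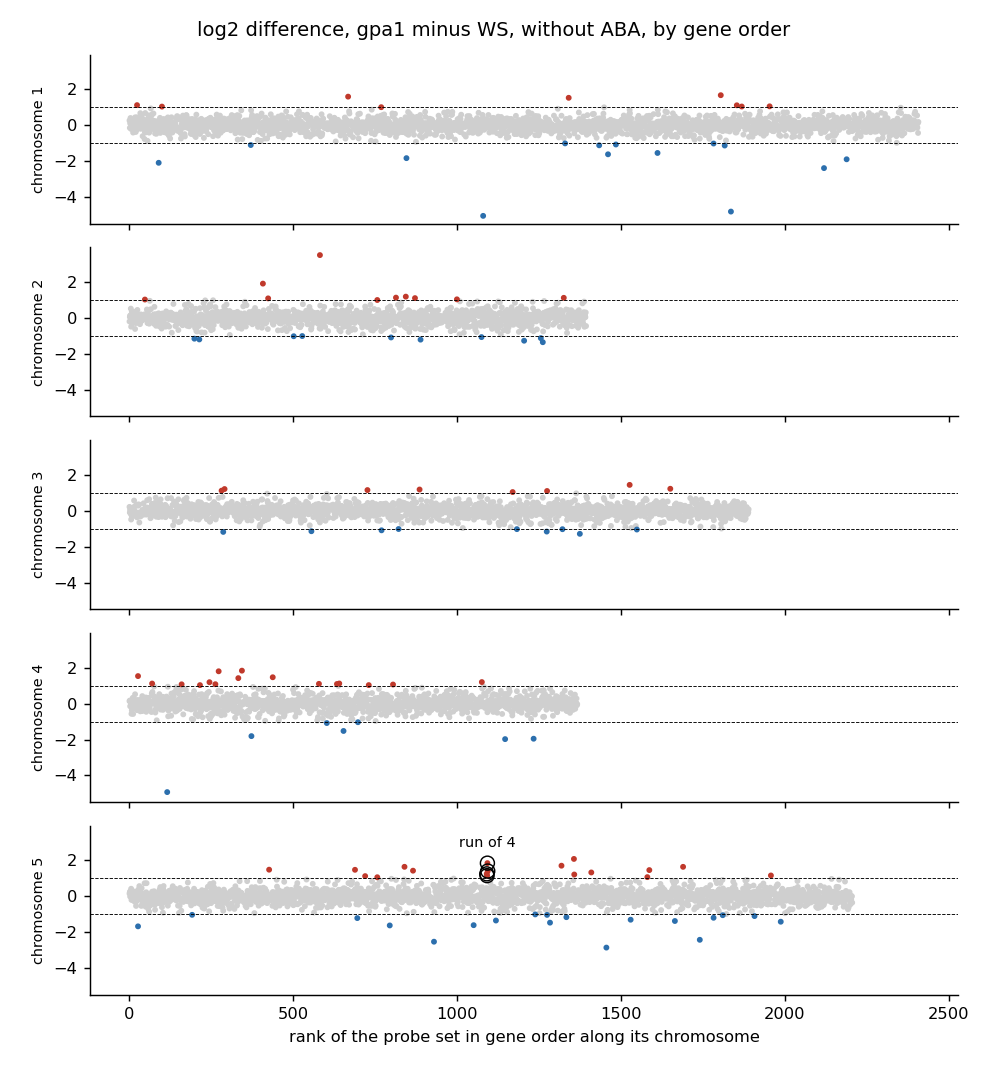
log2 difference of gpa1 minus WS without ABA for each placed probe set, ranked in gene order along each of the 5 chromosomes. Red and blue points are at least 2-fold higher or lower in gpa1 and the dashed lines mark 2-fold. The run of 4 higher genes on chromosome 5, consecutive among the placed probe sets, is circled. The other differences lie scattered along all chromosomes.

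Probe sets without a single gene name made up 52 of the 115 higher and 50 of the 111 lower ones. Over all 16874 counted probe sets, 7173 were unnamed and 329 had several genes, a similar share. Among the unnamed ones measured on both arrays, 249265_at read 353 in gpa1 and 1486 in WS, a difference of -2.07, and -1.99 with ABA. 247189_at read 106 and 414, a difference of -1.96, and -2.19 with ABA. On the higher side, 255447_at read 160.0 and 39.9, a difference of 2.00, and 0.12 with ABA. 263046_at read 173 and 52.4, a difference of 1.72, and 0.42 with ABA. The 2 low probe sets read alike on both pairs, and the 2 high ones were closer with ABA.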

How the data were processed

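The authors deposited 1 table of linear intensities for 4 Affymetrix ATH1 arrays, 1 per group, and the equal trimmed means show that they had scaled it. Which program summarised the probes is not given in these sources. Per the labels' protocols, oligo(dT)-primed, biotin-labelled cRNA was hybridised. The 64 control probe sets served as array checks. Values below the 30th percentile over the 4 arrays were raised to it, and log2 gpa1 minus log2 WS was taken per probe set, with Python 3.11.15, pandas 2.3.3 and numpy 2.4.6, after a check on simulated data. With 1 array per group there is no test; a 2-fold difference is the counting rule, and having so few arrays limits the precision.

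Probe sets were linked to genes through the platform annotation, with 1 gene for 13513 probe sets, several for 503 and 8730 not listed. RefSeq TAIR10.1 matched 13436 of the 13513 and gave their symbols, locus names, synonyms and gene order. The others kept the symbol of the platform. Members and lists were chosen with earlier results of these data known. The 60 families are patterns on symbols, locus names and synonyms, and 33 false matches were removed after the values were seen. Named genes are the labelled loci, the 15 highest and 15 lowest differences above the floor on both arrays, the 10 largest bounds per direction, the 4 widest members of each family and the members of runs. Another 17 genes were named after their values were seen, namely AT3G26440, AT3G26460, AT5G45510, ATSPS4F, CHI, COR47, CXE20, CYP71B22, CYP71B37, GTR1, GTR2, HCT, MSRB5, OSM34, PDF1.4, THI2.2 and UGT84A4, as were the 4 unnamed probe sets and the genes given only as at the floor. Alternatives were other floors, a pseudocount, median centring, quantile normalization and filters on dim probe sets. No sequences are shown.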

Additional observations from a re-analysis of the deposited data

Results flagged for a closer look

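ndhF, a subunit of the chloroplast NDH complex, was picked out because its 2 differences between the lines go opposite ways, each by at least 2-fold. Without ABA it was higher in gpa1 by 1.29 on the log2 scale, at 54.0 against 22.1, and with ABA the difference was -1.71, at 24.9 against 81.4. Each value rests on a single array, 2 of the 4 intensities lie close to the floor of 19.2, and the difference between the pairs was not tested. Under a floor at the 45th percentile the value without ABA was 0.54.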

How the results depend on the processing

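The counts of 2-fold differences depend on how dim values are treated. The 115 higher and 111 lower probe sets became 545 and 742 under a floor at the 15th percentile, 47 and 49 under one at the 45th, and 57 and 71 with a pseudocount in place of the floor. With both arrays required above the floor, the lower count was 68 and the higher count 79. The share that kept its sign with ABA, 78.6%, was 65.1% with the lower floor, 87.0% with the higher floor and 85.5% with the pseudocount. Median centring, quantile normalization, a filter at the 40th percentile of mean intensity and no filter left both counts within 1.5 times of the first values. The floor and the pseudocount act on dim values by construction. Of 60 named genes past 2-fold, 31 were past it in every setting, 36 with the higher floor and 48 with the pseudocount, and none turned its direction. Of 405 family medians recomputed, 2 moved by more than the spread between probe sets. No paired analysis was possible because each group has 1 array and the labels give no replicate numbers. With 1 array per group, no replicate could be left out.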

Other observations

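Transcription factor and chromatin lists not described above were also read. Of 21 counted bHLH and bZIP factors, none was 2-fold apart, with a median of 0.10. HYH, the relative of the light regulator HY5, read 44.0 in gpa1 and 27.9 in WS, a difference of 0.66, and -0.16 with ABA. BZIP28, a membrane-bound factor of the unfolded protein response, read 111.8 and 71.9, a difference of 0.64, and -0.06 with ABA. Of 24 counted genes of chromatin, silencing and RNA polymerases, none was 2-fold apart, with a median of 0.05, and the remodelling ATPase CHR17 read 110.9 in gpa1 and 66.4 in WS, a difference of 0.74, and 0.08 with ABA. Of 22 counted cytoskeleton genes, none was 2-fold apart. NET1B, an actin-binding protein, read 66.8 and 43.3 without ABA, a difference of 0.63, and 26.7 and 57.2 with ABA, a difference of -1.10. Of 11 counted autophagy genes, 8 read higher in gpa1. Their median was 0.12, beside -0.01 over all counted probe sets, and the widest difference was 0.23 for ATG3.

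The thiol redox list held 13 counted genes and none past 2-fold. GRXC1, a glutaredoxin, read 96.3 in gpa1 and 158 in WS, a difference of -0.72, and -1.05 with ABA, while GRXC2 read 994 and 717, a difference of 0.47, and 0.46 with ABA. These 2 glutaredoxins differed between the lines in opposite directions and alike in both pairs of arrays. GRX480, a glutaredoxin induced by salicylate, read 29.9 and 52.1 without ABA, a difference of -0.80, and -0.09 with ABA.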
